A study of Danio rerio with 4 samples.

Results

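The genes described here encode the proteins of the extracellular matrix, the integrins through which cells hold on to it, and the proteases and inhibitors that remodel it, in zebrafish eyes after an optic nerve cut. They were chosen by symbol: collagens (col), laminin chains (lam), nidogens, perlecan, fibronectins, vitronectins, sparc, thrombospondins (thbs), tenascins, decorin, biglycan, lumican, versican, neurocan, hyaluronan synthases (has), lysyl oxidases (lox), integrins (itg), matrix metalloproteinases (mmp), their tissue inhibitors (timp) and adam or adamts proteases, with mmp9 left out. This gave 50 probes for 32 genes, out of 14067 zebrafish probes and 5546 gene symbols on the array. A RefSeq record named 45 of the 50 probes, and 5 kept the name in the files, 1 of which is shortened there and is called collagen XI alpha-2 after its description. Other collagen, laminin and integrin probes whose symbol is missing or cut short in the files were not taken in.

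Injured eyes came from wild-type fish (line zdr, bought at a pet store) under MS-222 anaesthesia, whose eye muscles were cut and whose optic nerve was severed with the ophthalmic artery spared. Sham eyes had the muscles cut and the nerve left whole, so both carry a muscle wound, and RNA was collected at 3, 24 and 168 h from eyes freed of lens and sclera and pooled over several fish, whose ages are not given. Each of 9 arrays set 1 injured pool against 1 sham pool in different dyes, 3 arrays at each time, and 2 more arrays set pools of unoperated left eyes against each other. The labels put injured RNA in Cy5 on every array, whereas the array names give it Cy5 on 3 of the 9 and the authors' deposited table runs with the array names, so all values below take the dye from the names and are log2 of injured over sham.

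The extracellular matrix is a mesh of fibrous collagens, sheet-like basement membranes built on laminin and nidogen, and glycoproteins and proteoglycans bound to them. Integrins are pairs of an alpha and a beta chain that bind these proteins at the cell surface, metalloproteinases and adam proteases cut matrix and cell surface proteins, and timp proteins block metalloproteinases. In the retina and optic nerve, laminin and fibronectin are substrates on which axons extend, and fish can grow cut ganglion cell axons back. The roles given below for single genes are mostly known from mammals.

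Many of the probes were dim. A spot was counted as above the empty positions of its array when its foreground exceeded their 95th percentile in that channel. By this measure 7 of the 50 probes were above the empty positions in no channel of any injured-against-sham array (col9a1b, col9a2, itgb4, tncb and 1 probe each of has2, mmp2 and col1a1a), 23 on 1 to 4 arrays and 20 on 5 or more. Of all zebrafish probes, 17.2% to 44.8% were above in Cy5 and 38.7% to 71.9% in Cy3, and injured RNA was in Cy3 on 6 arrays, so the number of channels in which a probe was above is tied to dye. In RNA from whole tissue, fewer cells of a type and less RNA per cell cannot be told apart. The tissue label was met by its retinal markers: 6 of 6 rod genes were measured and above the empty positions, and their summed normalised intensity lay between 42160 and 121800 in injured pools and between 52000 and 139100 in sham pools.

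None of the 50 probes passed limma's test at an adjusted p of 0.05 at 3, 24 or 168 h or in the average over times, and the same held for 0% of all probes in each comparison. At an unadjusted p under 0.05 there were 3 probes at 3 h (6%, against 4.48% of all probes), with 1 higher in injured eyes (2%, against 2.3%) and 2 lower (4%, against 2.18%). At 24 h there were 3 (6%, against 5%), all higher (6%, against 2.23%) and 0 lower (against 2.77%). At 168 h there were 3 (6%, against 7.83%), with 1 higher (2%, against 4.23%) and 2 lower (4%, against 3.6%). The average over times, which uses all 9 arrays, gave 6 (12%, against 7.49%), with 4 higher in injured eyes (8%, against 3.89%) and 2 lower (4%, against 3.6%). The median log2 ratio over the 50 probes was 0.08 at 3 h, 0.06 at 24 h and -0.01 at 168 h, and that over all probes was -0.00, -0.01 and 0.00. Among the 20 brighter probes, 15 lay above 0 in the average (75%), with a median of 0.08, against 54.2% and a median of 0.03 for the 7215 zebrafish probes that were likewise above on 5 or more arrays. An array counted when either channel was above, and some probes passed mainly through the injured side, such as dcn with 9 injured and 4 sham channels. The 20 also hold several probes of 1 gene, so their share above 0 does not measure an effect of injury. In the fit as run, the 95% interval of the average lay wholly within a 2-fold difference in either direction for 18 of the 20 probes. Its median half-width was 0.44 on the log2 scale, against 0.74 for a single time. These intervals do not bound the difference in RNA. Of the 20, itga5 and 1 probe each of has2 and lamb1a had no array with both channels above the empty positions. Sizes also moved with the background method, as given below for thbs3a and nid2. The smallest adjusted p of any of the 50 probes was 0.9998 at 3 h, 0.956 at 24 h, 0.422 at 168 h and 0.489 in the average.

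**Figure D1:**
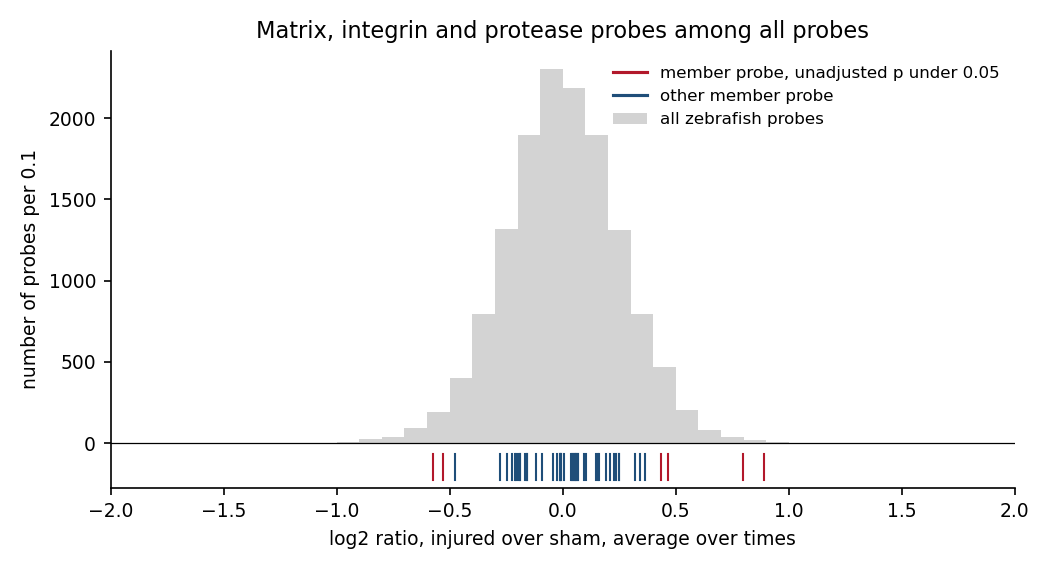
Log2 ratio of injured over sham averaged over 3, 24 and 168 h. Grey bars count all zebrafish probes per 0.1 of log2 ratio. Ticks below the axis mark the 50 matrix, integrin and protease probes, red where the unadjusted p was under 0.05. Of the 50 ticks, 28 lie above 0 (56%, against 49.8% of all probes). The outermost are timp2a at -0.58 and col1a1a at 0.89.

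The fibrillar collagens form the load-bearing fibres of connective tissue. The brightest probe of col1a1a, an alpha-1 chain of type I collagen, was the highest of the 50 in the average. Its log2 ratios on the 3 arrays of a time were 0.54, -0.15 and 1.27 at 3 h, 0.85, 1.23 and 0.88 at 24 h, and 1.15, 0.53 and 1.73 at 168 h, after the dye effect was taken out. It was thus higher in the injured pool on 8 of 9 arrays, with 1 array at 3 h the other way. Single-pool levels ran from 7.87 to 10.65 with a median of 8.98 in injured pools, and from 6.68 to 9.20 with a median of 8.59 in sham pools, on a normalised log2 intensity scale, so the pools overlapped. The fitted log2 ratio was 0.55 ± 0.35 (SE) at 3 h, 0.99 ± 0.35 at 24 h and 1.14 ± 0.35 at 168 h. The average was 0.89 ± 0.21 with a 95% interval of 0.45 to 1.33, an unadjusted p of 0.0006 and an adjusted p of 0.489 in limma. Leaving out any 1 array gave averages between 0.62 and 1.12. The other 2 col1a1a probes were above the empty positions in 0 and 1 of 18 channels, against 12 of 18 for the brightest, so no fold is given for them. In the authors' deposited table the brightest probe stood at 0.37, 0.53 and 0.70 at 3, 24 and 168 h.

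The other type I chains stood nearer to 0 in the average, though the difference from col1a1a was not tested. For col1a1b the log2 ratios were -0.24, 0.48 and 0.64 at 3 h, -0.67, 0.76 and -0.23 at 24 h, and -0.01, -0.21 and 0.10 at 168 h, which straddled 0 at each time and averaged 0.07 ± 0.20. The alpha-2 chain col1a2 had 0.50, 0.13 and 0.47 at 3 h, 0.56, -0.41 and 0.46 at 24 h, and -0.39, -0.96 and -0.45 at 168 h. All 3 of its arrays were above 0 at 3 h and all 3 below 0 at 168 h, and its average was -0.01 ± 0.19. Collagen XI alpha-2, which in mammals helps to set the width of collagen fibrils, had 1 high array at 3 h, at 1.84, while its other 8 arrays lay between -0.56 and 0.70, and it averaged 0.32 ± 0.25. Over the 6 fibrillar collagen probes 5 were above 0 at 3 h, 4 at 24 h and 3 at 168 h, against 49.9%, 49.1% and 50.2% of all probes. Of the 6, 3 are probes of col1a1a, and those other than the brightest were seldom above the empty positions. No shift of the group is read from these counts. The pair of type IX collagens, col9a1b and col9a2, which sit on the surface of cartilage fibrils, were not above the empty positions on any of the 9 arrays. The gene loxa, of an enzyme that cross-links collagen and elastin, was above them in 1 sham channel and no injured channel.

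**Figure D2:**
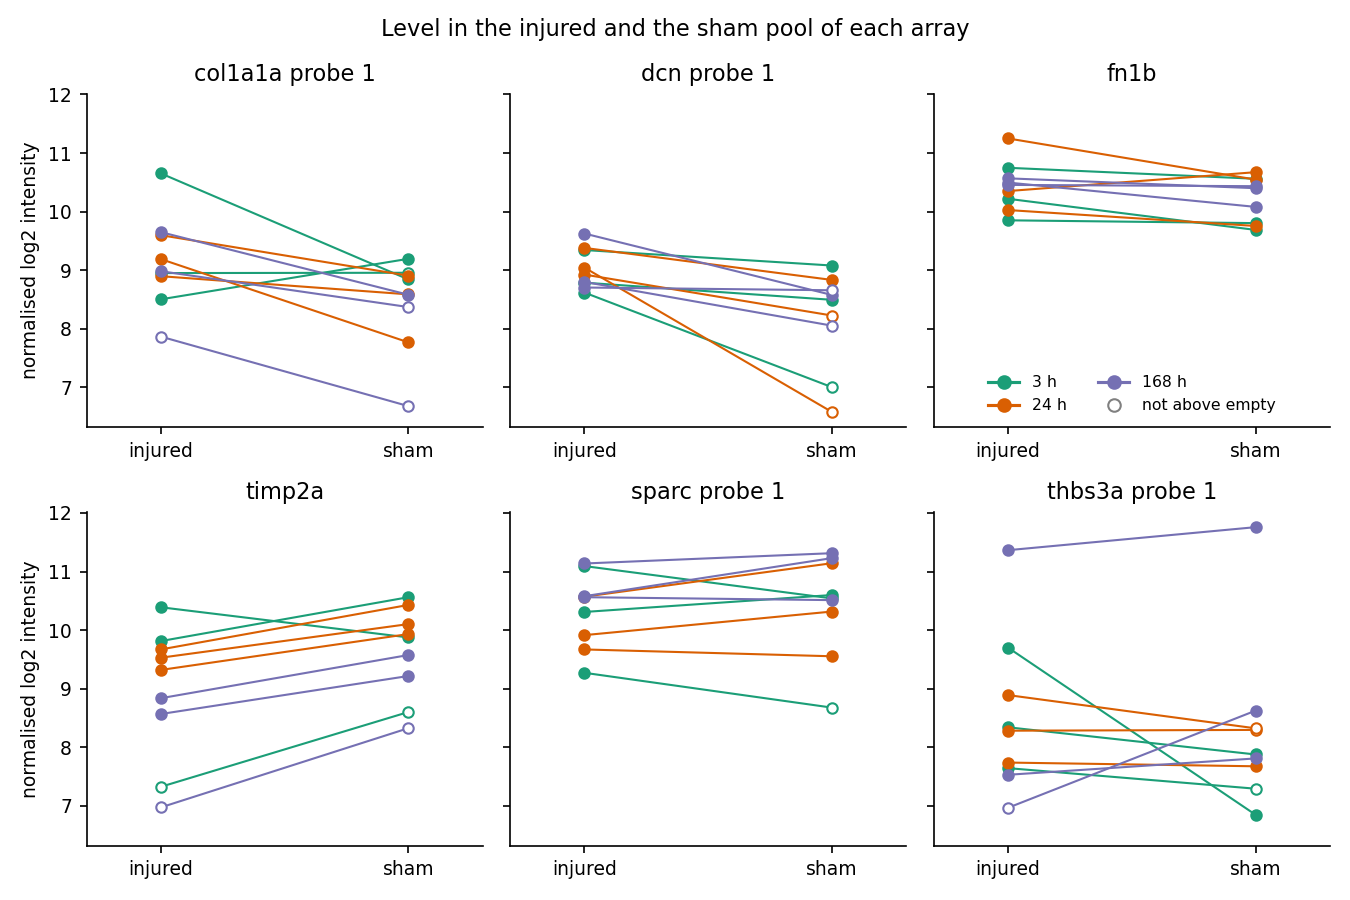
Normalised log2 intensity in the injured (left) and sham (right) pool of each of the 9 arrays, for 6 probes. Lines join the pools of 1 array, colours give the time, open circles are spots not above the empty positions, and the dye effect has not been taken out; injured and sham pools overlap for every probe shown, and decorin has its lowest 2 values in sham pools.

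Laminins and nidogen build basement membranes, and nidogen links the laminin and collagen IV sheets. For lamb1a, a laminin beta chain, the brightest of 4 probes had log2 ratios of -0.17, 0.71 and 0.72 at 3 h, 0.28, 0.08 and -0.30 at 24 h, and -0.15, 0.05 and 0.20 at 168 h, and averaged 0.16 ± 0.19. Its highest arrays were 2 of those at 3 h, and 0 lay inside the range at each time. The next brightest, probes 2 and 3, averaged 0.01 ± 0.19 and 0.24 ± 0.24. Probe 4 was 1 of the 6 probes at an unadjusted p under 0.05 in the average and 1 of the 3 at 24 h, yet it was above the empty positions in 1 injured channel and no sham channel, so no fold is given for it. The nidogen nid2 had 0.28, 0.83 and -0.31 at 3 h, -0.85, -0.55 and -0.39 at 24 h, and 0.39, 0.86 and 0.22 at 168 h. After a fitted dye effect of -1.04 was taken out, its 3 arrays at 24 h were all below 0 and its 3 at 168 h all above. The average over times was 0.05 ± 0.19. The gamma chain lamc1 was near the empty positions, above them in 1 injured and 1 sham channel, and averaged 0.05 ± 0.18. All 6 laminin and nidogen probes lay above 0 in the average, where 49.8% of all probes did so. Their median was 0.10, with a median SE of 0.19. Since 4 of the 6 are probes of lamb1a, and lamc1 and lamb1a probe 4 were seldom above the empty positions, no shift of the group is read from this.

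Fibronectin, an adhesive glycoprotein, which integrins bind and which fills early wounds, is encoded by fn1a and fn1b in zebrafish. For fn1b, above the empty positions in all 18 channels, log2 ratios were 0.26, 0.12 and 0.46 at 3 h, -0.25, 0.78 and 0.20 at 24 h, and 0.49, 0.09 and 0.10 at 168 h. It was higher in the injured pool on 8 of 9 arrays, by small amounts, and its levels overlapped, at 9.85 to 11.25 with a median of 10.46 in injured pools and 9.69 to 10.67 with a median of 10.40 in sham pools. The average was 0.25 ± 0.18, with a 95% interval of -0.14 to 0.64 and an unadjusted p of 0.194. The second gene, fn1a, was above empty positions in 4 injured and 2 sham channels. Its log2 ratios were 0.80, 0.78 and -0.01 at 3 h, 0.22, 1.22 and -0.18 at 24 h, and 0.39, 1.28 and -1.24 at 168 h. The arrays of fn1a disagreed most at 168 h. At 3 and at 24 h it was above the empty positions in 1 injured channel and 0 sham channels each. No fitted value is given for those times, and their ratios rest on spots mostly not above the empty positions.

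The matricellular genes encode proteins that bind matrix and cells without forming fibres. The collagen-binding protein sparc had 5 probes, 2 of which, probes 1 and 2, were above the empty positions in nearly all channels. Their fitted values had opposite signs at each time, a difference that was not tested. Probe 1 had log2 ratios of 0.28, 0.24 and 0.02 at 3 h, -0.20, -0.72 and -0.26 at 24 h, and -0.49, -0.34 and -0.26 at 168 h, which is above 0 on all 3 arrays at 3 h and below 0 on the later 6. Probe 2 had -1.38, 0.79 and -0.08 at 3 h, 0.08, 0.91 and 0.32 at 24 h, and 0.92, 0.43 and 0.04 at 168 h, with all later arrays above 0. The averages were -0.19 ± 0.17 for probe 1, 0.23 ± 0.23 for probe 2 and 0.34 ± 0.19 for probe 3, which was higher in the injured pool on 8 of 9 arrays. Probes 4 and 5, which are dimmer, averaged -0.12 ± 0.20 and 0.10 ± 0.19.

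Thrombospondins are calcium-binding glycoproteins, of which thbs3a had a bright and a dim probe here. The bright probe had log2 ratios of -0.09, 2.41 and 0.91 at 3 h, -0.46, 0.12 and 0.51 at 24 h, and -0.72, -1.21 and -0.84 at 168 h. At 168 h all 3 arrays were lower in the injured pool, whereas at 3 h 1 array carried most of the value. Levels overlapped, from 6.97 to 11.37 with a median of 8.28 in injured pools and from 6.85 to 11.76 with a median of 7.88 in sham pools. The fit gave 1.07 ± 0.41 at 3 h with an unadjusted p of 0.0185, 0.06 ± 0.41 at 24 h and -0.93 ± 0.41 at 168 h with an unadjusted p of 0.0379. Without the second array at 3 h, the 3 h value was 0.41. The 168 h value lay between -1.025 and -0.67 with 1 array left out. Its unadjusted p was over 0.05 without any 1 array at 168 h, and with no background subtraction, scale normalisation between arrays or no dye effect. In the authors' deposited table the bright probe stood at 0.65, 0.25 and -0.32. The dim thbs3a probe exceeded the empty positions in 1 channel on each side, so no fold is given for it. Of the other members, the brighter of 2 thbs1b probes stood at -0.70 ± 0.32 at 3 h in limma's fit (unadjusted p of 0.0474, adjusted p of 0.9998) with 1 channel above on each side, and at -0.39 without the third array at 3 h (unadjusted p of 0.410). Its unadjusted p was also over 0.05 with no background subtraction, the foreground median, median centring, print-tip loess or no dye effect. The dimmer thbs1b probe, above in 0 injured and 1 sham channels, had the opposite sign at 3 h, so no fold is given for it. The probe of thbs4b was above in 1 injured and 2 sham channels and averaged -0.21 ± 0.23, and the tenascin gene tncb was not above the empty positions.

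Proteoglycans carry long sugar chains and bind collagen, growth factors and hyaluronan. Decorin (dcn), a small leucine-rich proteoglycan that binds collagen fibrils, had the second highest average of the 50 probes. Its brightest probe had log2 ratios of 1.44, 0.11 and 0.44 at 3 h, 2.29, 0.52 and 0.73 at 24 h, and 0.57, 1.23 and -0.13 at 168 h. It was higher in the injured pool on 8 of 9 arrays, and the first arrays at 3 and 24 h, where the sham spot was not above the empty positions, were the highest. Levels ran from 8.62 to 9.63 with a median of 8.93 in injured pools and from 6.58 to 9.08 with a median of 8.50 in sham pools, overlapping at the top of the sham range. It was above empty positions in 9 injured and 4 sham channels, or 9 Cy3 and 4 Cy5 channels, so this difference runs with dye as well. The fit gave 0.66 ± 0.41 at 3 h, 1.18 ± 0.41 at 24 h with an unadjusted p of 0.0109, and 0.55 ± 0.41 at 168 h. The average was 0.80 ± 0.24, with a 95% interval of 0.28 to 1.32, an unadjusted p of 0.0050 and an adjusted p of 0.534 in limma. Without the first array at 24 h, the 24 h value was 0.62. With no background subtraction the average was 0.42. Its other 2 probes were each above in 1 sham channel and 0 injured channels, so no fold is given for them. In the authors' deposited table the brightest probe stood at 0.27, 0.58 and 0.35.

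The related biglycan gene bgnb had log2 ratios of -0.25, -0.55 and 0.29 at 3 h, -0.84, 1.01 and -0.17 at 24 h, and 0.16, 0.03 and 0.76 at 168 h. These straddled 0 at the first 2 times and lay above it on all 3 arrays at 168 h, with an average of 0.05 ± 0.22. The hyaluronan-binding proteoglycans vcanb (versican) and ncan (neurocan, of nervous tissue) were above empty positions in 1 injured and 1 sham channel each and averaged 0.15 ± 0.21 and 0.21 ± 0.24. Hyaluronan itself is made at the cell membrane by has2 and has3. The brighter has2 probe had -0.71, -1.36 and -0.38 at 3 h, 0.11, -0.42 and -1.37 at 24 h, and -0.36, 0.17 and -0.43 at 168 h, lower in the injured pool on 7 of 9 arrays. At 3 h it was above the empty positions in 2 sham channels and 0 injured channels, so no fitted value is given there. Its average of -0.53 ± 0.21 had an unadjusted p of 0.0224 and an adjusted p of 0.610 in limma. Without the third array at 24 h the average was -0.23 with an unadjusted p of 0.327, and with the foreground median in place of the mean it was -0.0691. Its unadjusted p was also over 0.05 in a fit with no dye effect. Before the fitted dye effect of -0.50 was removed, 4 of the 9 ratios of this probe lay above 0. The gene has3 was above in 1 channel on each side and averaged -0.21 ± 0.24.

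**Figure D3:**
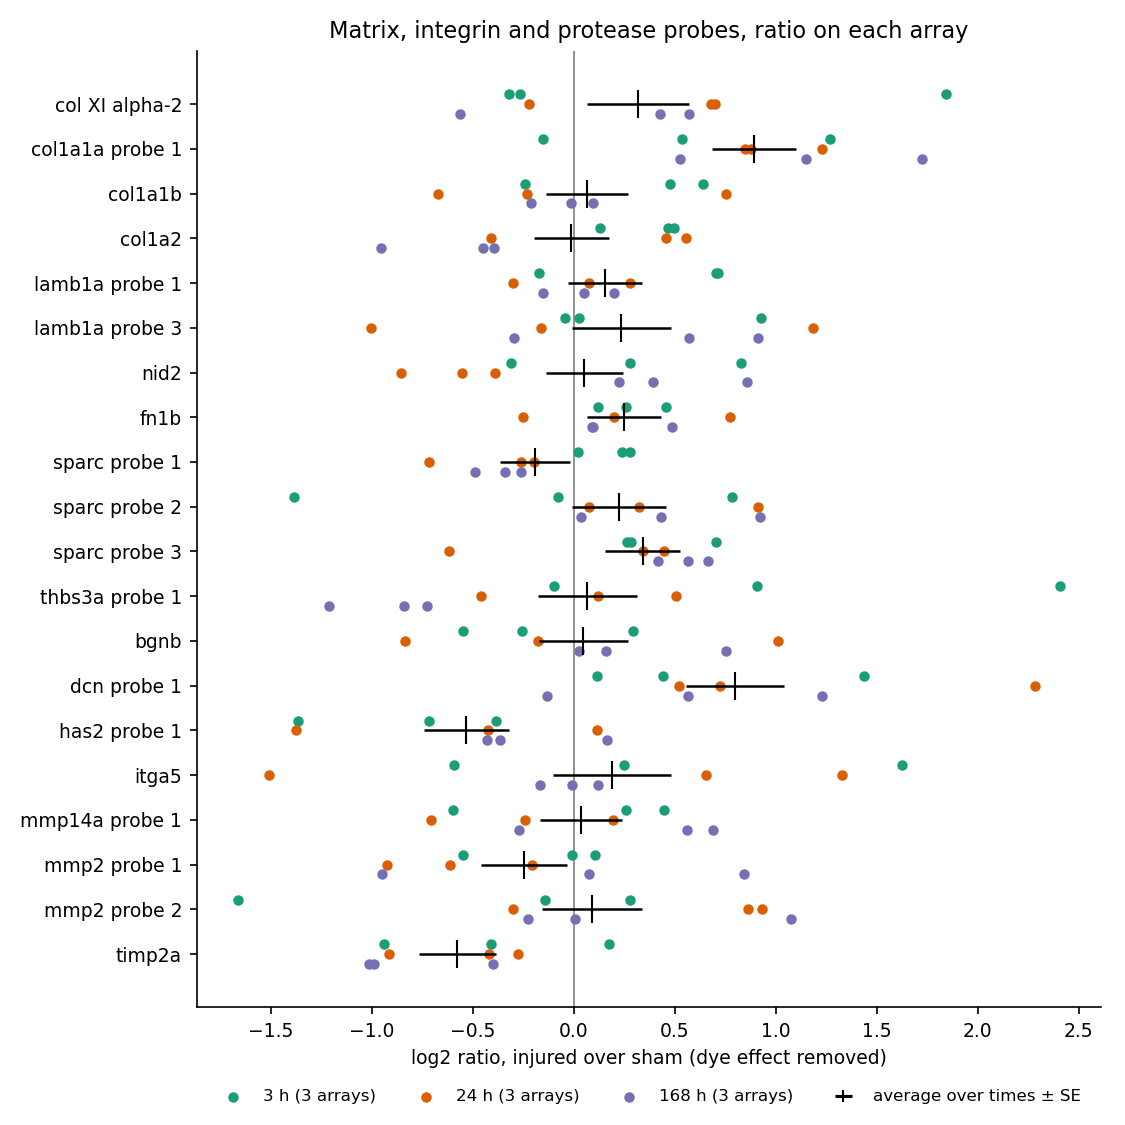
Log2 ratio of injured over sham on each array, with the dye effect removed, for the 20 probes above the empty positions on 5 or more of 9 arrays. Dots are arrays, 3 at each time, and black bars are the average over times ± SE from the fit; col1a1a probe 1 and dcn probe 1 lie mostly right of 0, timp2a and has2 probe 1 mostly left, and the dots of most probes fall on both sides.

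Integrin chains were dim. The alpha chain itga5, which pairs with a beta-1 chain to bind fibronectin, was above the empty positions on 6 arrays, each time in Cy3 alone. Its log2 ratios were 0.25, 1.63 and -0.59 at 3 h, 0.66, -1.51 and 1.33 at 24 h, and 0.12, -0.16 and -0.01 at 168 h, the widest scatter at 24 h of the probes on the plot of ratios by array, and it averaged 0.19 ± 0.29. The beta-1 chain itgb1b was above on 1 array, in both pools, and averaged 0.25 ± 0.21. The beta chain of leukocyte integrins, itgb2, was above in 1 injured and 3 sham channels, all in Cy3, and averaged 0.04 ± 0.24. The chain itgb4, which anchors epithelial cells to the basement membrane, was not above the empty positions. Of the 4 chains, 3 lay above 0 in the average, where 49.8% of all probes did so, and their median was 0.12.

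The metalloproteinase inhibitor timp2a had the lowest average of the 50 probes. Its log2 ratios were -0.94, -0.41 and 0.18 at 3 h, -0.42, -0.27 and -0.91 at 24 h, and -0.40, -0.99 and -1.01 at 168 h. It was lower in the injured pool on 8 of 9 arrays, with 1 array at 3 h the other way, and it was above empty positions in 7 injured and 7 sham channels. Levels ran from 6.98 to 10.39 with a median of 9.32 in injured pools and from 8.33 to 10.56 with a median of 9.88 in sham pools, so most of the ranges overlapped. The fit gave -0.39 ± 0.32 at 3 h, -0.54 ± 0.32 at 24 h and -0.80 ± 0.32 at 168 h, the last with an unadjusted p of 0.0249. The average was -0.58 ± 0.19, with a 95% interval of -0.99 to -0.16, an unadjusted p of 0.0092 and an adjusted p of 0.583 in limma. In the authors' deposited table it stood at -0.32, -0.55 and -0.69.

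In mammals the timp2 protein both blocks the gelatinase mmp2 and takes part in its activation by the membrane protease mmp14. For mmp2, the brightest probe had log2 ratios of -0.55, -0.01 and 0.11 at 3 h, -0.21, -0.61 and -0.92 at 24 h, and -0.95, 0.08 and 0.84 at 168 h, with its 3 arrays at 24 h below 0 and the 168 h arrays spread to both sides. The second mmp2 probe stood at -0.51, 0.50 and 0.29 at the 3 times, of opposite sign to the first at 24 h, and the averages were -0.25 ± 0.21 and 0.09 ± 0.25. For mmp14a, the brighter probe averaged 0.04 ± 0.20, with arrays between -0.70 and 0.69. Its dimmer probe was above empty positions in no injured and 4 sham channels, 2 of them at 3 h, so no fold is given for it. Of the adam proteases, adam10b, the enzyme that sheds the outer parts of many membrane proteins, had 2 probes. Its brighter probe was higher in the injured pool on 8 of 9 arrays and averaged 0.43 ± 0.19, with an unadjusted p of 0.0368 and an adjusted p of 0.639 in limma, while being above the empty positions on 3 arrays. With no background subtraction that average was 0.24. The other adam10b probe was above in 1 injured and 0 sham channels, so no fold is given for it, and adamts2a, a procollagen-processing enzyme, was above in 1 channel on each side and averaged -0.09 ± 0.31. The gelatinase mmp9, not among the 50 probes, stood at 0.58 ± 0.31, 0.31 ± 0.31 and 0.51 ± 0.31 at 3, 24 and 168 h on its brightest probe, with unadjusted p of 0.0856, 0.345 and 0.126.

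The times were also set against each other in the same fit. No probe passed an adjusted p of 0.05 for any difference between times, as for 0% of all probes. At an unadjusted p under 0.05 there was 1 of 50 for 24 minus 3 h (2%, against 4.19% of all probes), 1 for 168 minus 24 h (2%, against 4.29%) and 2 for 168 minus 3 h (4%, against 5.03%). The largest of these was the bright thbs3a probe, at -1.999 for 168 minus 3 h with an unadjusted p of 0.0029 and an adjusted p of 0.928 in limma. It lay between -2.64 and -1.27 when any 1 array was left out, and at -0.97 with no background subtraction and -3.87 with plain subtraction. The only probe at 24 minus 3 h was the dim mmp14a probe, with no injured channel above the empty positions. For an effect at any time, limma's F test gave col1a1a, dcn and thbs3a at an unadjusted p under 0.05, which is 3 of 50 (6%, against 5.6%), all with an adjusted p of 0.871.

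Probes of 1 gene often had fitted values of opposite sign. Of the 32 genes, 10 had several probes, and within these the probes had opposite signs in 10 genes at 3 h, 6 at 24 h, 7 at 168 h and 8 in the average. Values near 0 are counted too, such as 0.04 for mmp14a at 3 h, where the median SE of its probes was 0.37. How often probes of other genes on the array differ in sign was not counted, and differences between probes were not tested. The median distance between the highest and the lowest probe of a gene was 0.80 at 3 h and 0.50 in the average. For sparc and mmp2 the opposite signs were between probes that were both bright, whereas for col1a1a and dcn the counts take in fitted values of probes seldom above the empty positions. Whether probes of 1 accession carry the same oligonucleotide is not given in the sources used here.

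**Figure D4:**
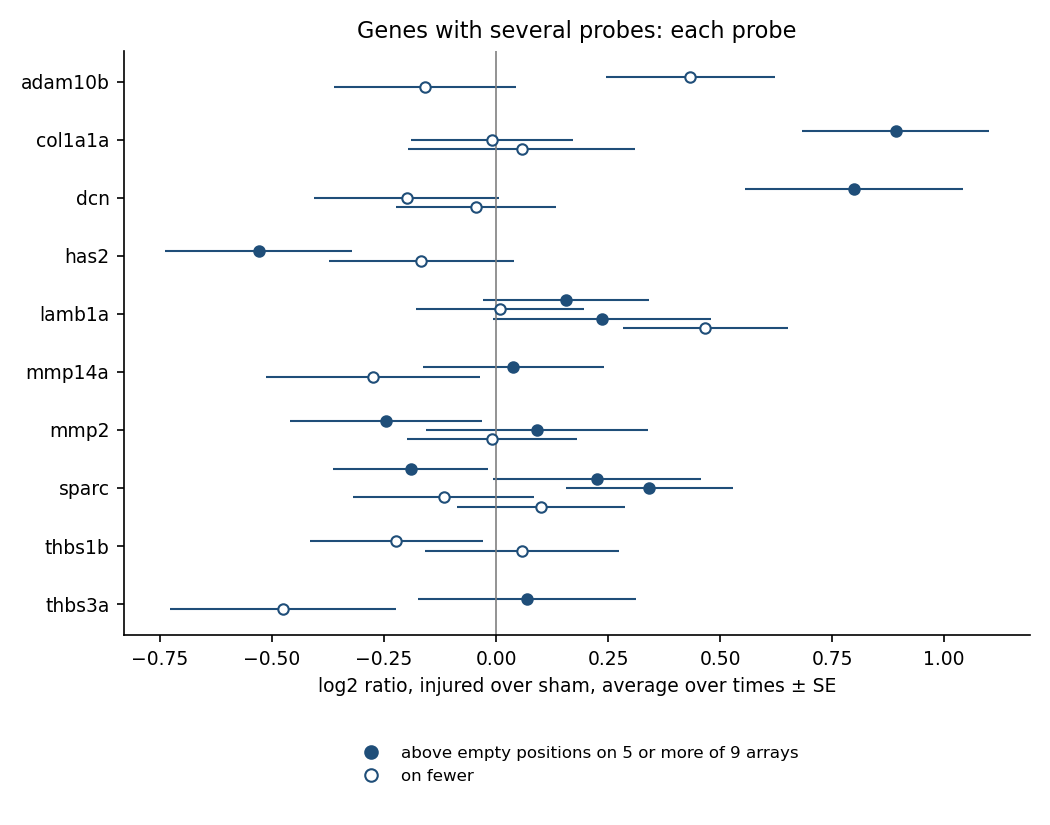
Average log2 ratio of injured over sham ± SE for each probe of the 10 genes with several probes. Filled circles are probes above the empty positions on 5 or more of 9 arrays and open circles are the others; the highest filled circles, of col1a1a at 0.89 and dcn at 0.80, lie above the open circles of the same gene, which are fitted values of spots seldom above the empty positions.

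Arrays without an operation show the spread to set these values against. On the 2 arrays of unoperated eyes, which share 1 pool, the 50 probes had an SD of 0.53 and 0.60 in their Cy5 over Cy3 log2 ratio, with 3 probes beyond 2-fold on each (6%, against 8.21% and 15.0% of all probes). On the 9 injured-against-sham arrays the SD was 0.58 to 0.86, with 4 to 12 probes beyond 2-fold (8% to 24%, against 11.6% to 23.3% of all probes). On the control arrays the bright dcn probe stood at -1.23 and -0.65, col1a1a at 0.58 and -0.02, timp2a at -0.37 and -0.40, and nid2 at 0.04 and -2.18. The SDs, the 2-fold counts and the control ratios in this paragraph all keep the dye effect. The fitted and per-array ratios of the earlier paragraphs do not, so no size is read across. The dye itself shifted 3 of the 50 probes at an adjusted p under 0.05 in limma (6%, against 11.1% of all probes), namely col9a1b by 0.85 and lamb1a probe 4 by 0.61 towards Cy5, and nid2 by -1.04, towards Cy3. Had injured RNA been in Cy5 on every array, as the labels say, the average would stand at -0.44 for dcn and 0.53 for timp2a. For col1a1a the value at 168 h would stand at -0.24, while its average would keep its sign. The directions of the dcn and timp2a averages, and of col1a1a at 168 h, thus rest on the array names.

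Other genes of matrix assembly, adhesion and extracellular proteolysis were read from the same fit. None of 11 measured matrix assembly enzymes, 16 further matrix proteins, 14 focal adhesion genes or 8 other extracellular proteases and inhibitors passed an adjusted p of 0.05 at any time or in the average. At an unadjusted p under 0.05 in the average, 3.89% of all probes were higher and 3.6% lower in limma's fit. Of the 11 assembly enzymes, 1 was higher and 1 lower. The higher was serpinh1b, the collagen chaperone (0.58, p of 0.022), above the empty positions in 3 injured channels and 1 sham channel. The lower was p4hb, a subunit of the enzyme that hydroxylates collagen (-0.48, p of 0.048). Among further matrix proteins ccn1, a matricellular integrin ligand, stood at 0.64 (p of 0.005) and the proteoglycan sdc2 at -0.42 (p of 0.032). In focal adhesions, which tie integrins to actin, vcla stood at -0.70 (p of 0.009) and lims2 at -0.40 (p of 0.049). The lims2 probe was above the empty positions in only 0 injured and 2 sham channels. The lysosomal protease ctsz stood at 0.84 in the average, with an unadjusted p of 0.0004 and an adjusted p of 0.4895 in limma.

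Markers of tissues that also make these genes were read beside them, and their part in the col1a1a, dcn and timp2a values was not tested. The 2 measured fibroblast markers, pdgfra and twist1a, had medians of -0.73 at 3 h, 0.40 at 24 h and -0.01 at 168 h, but they differed from each other. At these times pdgfra stood at -1.35, -0.21 and -0.12, and twist1a at -0.11, 1.00 and 0.10. Only sham pools, 2 of them, gave a pdgfra spot brighter than the empty positions, whereas 7 injured and 5 sham pools did so for twist1a. The summed normalised intensity of both markers was 400.3 to 1434 in injured pools and 237.7 to 1171 in sham pools. For 9 skeletal muscle markers the medians were 0.29, -0.12 and -0.07, with sums of 11300 to 67050 in injured pools and 10970 to 27530 in sham pools. The lens had been removed per the labels, and 6 lens markers gave sums of 1143 to 13260 in injured pools and 1340 to 2612 in sham pools. Such sums also take in spots too dim to exceed the empty positions. The lens markers had a median of 1.10 at 3 h, and 4 of them had an unadjusted p under 0.05, against 4.48% of all probes. Of these 4, cryba4 was brighter than the empty positions in 1 channel on each side and gja8b in 2 on each side. For crygm2d1 this held for 5 injured channels and 1 sham channel, and for crygs2 for 4 and 5. The 8 epithelial markers had a median of 0.88 at 24 h, and 5 of them had an unadjusted p under 0.05, against 5% of all probes. Rod markers had a median of -1.39 at 168 h. No marker passed an adjusted p of 0.05, and of the 2 measured cartilage and sclera markers 1 was above 0 at 3 h and at 168 h and both at 24 h.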

How the data were processed

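RNA from injured, sham and unoperated zebrafish eyes was compared on 2-colour oligonucleotide arrays. The deposited scanner files hold, per the file headers, unnormalised foreground and background intensity per spot and dye. The deposited table of the authors holds 1 log2 value per spot and time. Per the submitters' processing notes limma was used, in a version not given in the sources used here. The table's lines were matched to spots by number. Its columns correlated with the mean normalised ratios oriented by array name at r = 0.745, 0.772 and 0.731 across probes at 3, 24 and 168 h. With ratios of the unnormalised foreground oriented by array name, r was 0.8475, 0.845 and 0.8234. With the same foreground as plain Cy5 over Cy3, r was -0.432, -0.482 and -0.397. Its medians were 0.00619, 0.004808 and 0.01121, and any centring is unknown.

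In limma 3.58.1 (R 4.3.3), normexp (offset 50) and global loess within arrays were applied, with control, empty and bad spots at weight 0. One fit of 9 arrays held a coefficient per time, signed by dye orientation, and 1 dye effect, with 5 residual and 9.99 prior degrees of freedom. P-values were adjusted by Benjamini-Hochberg over 14067 probes (14065 at 24 h and in the average). Per-array ratios have the dye effect removed, and levels are single-channel values after loess and Aquantile. P-values measure the spread between pools of fish that the labels call biological replicates, and the number of arrays limits precision. Control arrays stayed outside the fit. The fit was tested on simulated data. Alternatives changed background, normalisation, dye term, dim-spot filter, arrays, block and dye reading.

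Genes were named through RefSeq (GRCz12tu, names only, 7755 probes matched). Values were given for members above the empty positions, apart from loxa and the probes for which the text says that no fold is given. For those probes no injured-over-sham value of the main fit is printed, though a value under the labels' dye reading may be. The probe of highest mean intensity came first. The members and lists were chosen with earlier results of these data known.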

Additional observations from a re-analysis of the deposited data

Results flagged for a closer look

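For 3 probes, all 3 arrays of 1 time lay on one side of 0 and all 3 of another time on the other side. That is 3 of the 20 brighter probes (15%), against 8.33% of the 7214 brighter zebrafish probes with all 9 ratios. The col1a2 probe differed by -0.96 ± 0.43 between 168 and 3 h (unadjusted p of 0.041, adjusted p of 0.928 in limma). The first sparc probe differed by -0.57 ± 0.40 between 24 and 3 h (unadjusted p of 0.173, adjusted p of 0.9995) and by -0.54 ± 0.40 between 168 and 3 h (unadjusted p of 0.193, adjusted p of 0.929). The nid2 probe differed by 1.09 ± 0.44 between 168 and 24 h (unadjusted p of 0.0253, adjusted p of 0.996). The nid2 value was 0.145 with no background subtraction, 3.82 with plain subtraction and 0.81 without the second array at 168 h, and its unadjusted p was over 0.05 in the first and the last of these. That p was also over 0.05 with median centring, print-tip loess or no dye effect, and without the first array at 24 h. Before a fitted dye effect of -1.04 was removed, 6 of the 9 nid2 ratios lay above 0. In the authors' deposited table nid2 stood at 0.07, -0.03 and 0.11 at 3, 24 and 168 h. Its probe was above the empty positions in 9 Cy3 channels and 1 Cy5 channel. No difference passed the adjusted threshold, and single times rest on 3 arrays each.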

How the results depend on the processing

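With dyes by array name, the count of the 50 probes at an adjusted p under 0.05 stayed at 0 for each time, the average and the differences between times under all alternatives run, the replicate block (number of the sham pool, 0 calls) included. That number did not pair arrays: 7 pairs of equal number correlated at -0.14 to 0.24, and the block's consensus correlation was -0.037. Leaving out 1 array gave 2 to 4 of the 50 probes at an unadjusted p under 0.05 at 3 h (578 to 674 of all probes). It gave 2 to 4 at 24 h (592 to 731 of all), 2 to 3 at 168 h (798 to 1319) and 3 to 7 in the average (857 to 1185). The dye effect passed an adjusted p of 0.05 in 3 of the 50 probes (1555 of 14065 zebrafish probes). It passed in 5 with median centring (2680 of all), 1 with print-tip loess (1105) and 1 with the filter on dim spots (1406 of 7215). With 1 array left out it passed in 1 to 4 (673 to 1433 of all). Reading injured RNA as Cy5 on every array cannot separate injury from dye. At an adjusted p under 0.05 this reading gave 2 of the 50 probes at 3 h (against 387 of 14067) and 5 in the average (against 1863 of 14065). It turned these values: thbs3a -0.91 and has2 0.0636 at 3 h, dcn -0.87 at 24 h, col1a1a -0.24 and timp2a 0.48 at 168 h, timp2a 0.53 and dcn -0.44 in the average, mmp14a probe 2 -0.47 (24 minus 3 h), nid2 -0.26 (168 minus 24 h), and thbs3a 0.58 and col1a2 0.0144 (168 minus 3 h). The median over its 3 probes put dcn at -0.0441 in the average. With 1 array left out, dcn averaged 0.55 to 0.97 and timp2a -0.79 to -0.43. A block for slide or scan was not run, as the array files read here give neither. Dim spots limit the other values.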
